A study of Homo sapiens with 12 samples.

Results

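The comparison set 2 point mutants of NSD2 against each other, D1240A and F1295A, each expressed in the same human myeloma cell line. It rests on 6 of the 12 libraries of the series, 3 labelled D1240A and 3 labelled F1295A, chosen by those labels alone. The cells are TKO, a line labelled as plasma cells and derived from KMS-11 multiple myeloma cells with the genotype WHSC1(+/-), where WHSC1 is the older name of NSD2. D1240A cells carried an expression vector for NSD2 p.D1240A, and F1295A cells an expression vector for NSD2 p.F1295A. The remaining groups were TKO without a vector and TKO with an expression vector for unmutated NSD2, called WT here, with 3 biological replicates each. All 4 groups thus share the WHSC1(+/-) background, and NSD2 RNA was also present in TKO without a vector. No source used here names the vectors' promoter or says how many clones stand behind a group.

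NSD2 is a histone methyltransferase that places methyl groups on lysine 36 of histone H3 through its SET domain. In myeloma the t(4;14) translocation, which KMS-11 carries, drives NSD2 to high levels and spreads this mark over the genome. The protein ends in zinc-binding PHD-type folds after the SET domain, which are thought to help it engage chromatin, and both substitutions fall in that end. The comparison asks how the transcriptomes under the 2 substitutions differ.

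The codons are shown because they are the only designed difference between the groups. In an NSD2 transcript of GENCODE 29 that encodes 1365 residues, the codon replaced in D1240A is GAC at chr4:1976571-1976573 (GRCh38, plus strand) in exon 21 of 22. The codon replaced in F1295A is TTT at chr4:1978694-1978696 in exon 22. The codons lie 55 residues apart, 125 and 70 residues before the end of the protein. The reference sequence around each codon reads as follows, with the codon that the mutant replaces in capitals and 24 coding bases on either side.
D1240A: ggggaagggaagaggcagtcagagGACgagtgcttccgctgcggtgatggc
F1295A: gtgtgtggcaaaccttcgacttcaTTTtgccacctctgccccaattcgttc

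Levels are given as FPKM (fragment counts per length of gene, scaled to the mapped total) after rescaling between libraries, and differences as log2 of D1240A over F1295A, computed on log2(FPKM + 0.5), which understates the difference of low genes. A gene is called higher or lower when limma gave an adjusted p under 0.05. Total NSD2 RNA was not equally abundant in the 2 mutants. NSD2 (ENSG00000109685, chr4:1871424-1982207) measured 242.3, 259.2 and 250.3 FPKM in the D1240A libraries and 171.6, 161.3 and 159.4 in the F1295A libraries. The groups did not overlap, and the difference was 0.61 (95% interval 0.53 to 0.69, adjusted p = 1.7e-05), or 0.59 without D1240A replicate 2 (adjusted p = 0.00012). WT had a mean of 190 FPKM, between both mutants, and TKO 60.1 FPKM. These values sum transcripts of the vector and of the chromosome, and the part of this unequal NSD2 RNA in any result given here was not tested.

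**Figure D1:**
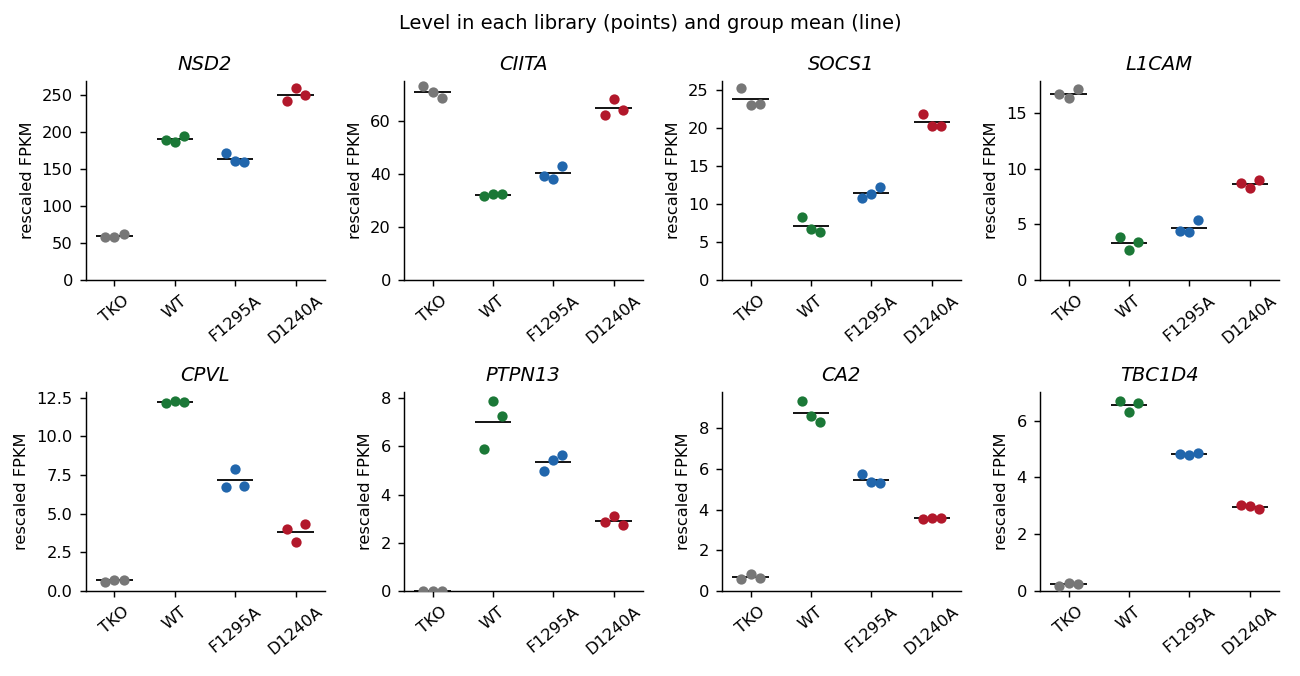
Rescaled FPKM (vertical axis, from 0) of 8 genes in each of the 12 libraries (points, 3 per group) with the group mean (line). NSD2 is highest in D1240A, at 242.3 to 259.2 FPKM, while CIITA, SOCS1 and L1CAM lie nearer to TKO in D1240A than in F1295A, and so do CPVL, PTPN13, CA2 and TBC1D4 in the opposite direction.

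1 of the 6 libraries stood apart. In D1240A replicate 2, ribosomal RNA features took 51.4% of all deposited FPKM, where the other 5 had 0.222% to 0.341%. Its small nuclear RNAs added up to 90165 FPKM, where the others had 83.9 to 183.3. Its histone genes, whose mRNAs mostly lack a poly(A) tail, had a median log2 level of 5.48, where the other 5 lay from 0.77 to 1.103. Structural RNA features were dropped and the libraries rescaled, and the main counts are also given without this library. Depth, estimated from the step that 1 fragment makes in low FPKM values, was 58.1 M, 32.7 M and 40.3 M mapped fragments for D1240A replicates 1 to 3 and 48.1 M, 56.2 M and 46.7 M for F1295A. The plasma cell genes XBP1, IRF4, PRDM1, JCHAIN, MZB1 and TNFRSF17 were expressed in all 6 libraries. The surface markers SDC1 (0.129 to 0.369 FPKM) and CD38 (0.160 to 0.872 FPKM) were near 0, and the B cell markers MS4A1 and PAX5 were listed at 0. Of myeloid markers, 15 of 16 were under 0.5 FPKM in all 6 libraries, as were 13 of 17 T and NK cell markers.

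The mutants differed in many genes by small amounts. Of 14391 tested genes, 876 (6.09%) were called, 432 higher in D1240A (3.00%) and 444 lower (3.09%). The median fold of the called genes was 1.20, 80 of them differed at least 1.5-fold, and 7 at least 2-fold. These 7 were non-coding, pseudogene or unnamed features. An unnamed one averaged 73.9 FPKM in D1240A through 203.0 FPKM in replicate 2, and the others had group means under 2 FPKM. Of the 7, only the long non-coding RNA AC024560.3 was also called without D1240A replicate 2. Among all tested genes the median difference was 0.00, and 90.1% differed by less than 1.25-fold. The 3 libraries of one mutant lay above all 3 of the other in 873 of the 876, against 24.0% of all tested genes.

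Without D1240A replicate 2, limma called 374 genes (2.61%), 209 higher (1.46%) and 165 lower (1.15%). Of the 876, 347 were called again in the same direction, 191 higher and 156 lower. The direction held in all 873 that could be tested. Groups that do not overlap keep their direction when 1 library is left out, so this is no separate check. Without rescaling, 31 genes were called higher and 32 lower. The counts also moved with D1240A replicate 3 (220 higher and 198 lower without it), F1295A replicate 2 (173 and 137) and F1295A replicate 3 (211 and 141), and without D1240A replicate 1 the lower count went up to 689.

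**Figure D2:**
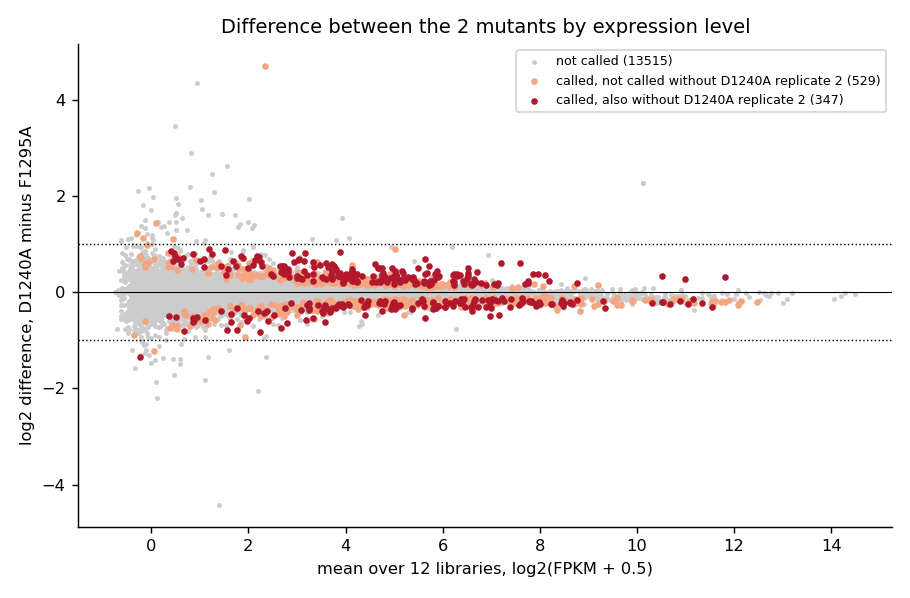
Difference between the mutants (vertical axis, log2 of D1240A over F1295A) against the mean level over 12 libraries (horizontal axis, log2(FPKM + 0.5)) for 14391 genes, with dotted lines at 2-fold. Of the 876 called genes, the 347 in dark red were also called without D1240A replicate 2, and 7 called genes lie at or beyond the dotted lines.

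Calls among antigen presentation genes went in 1 direction. The MHC class I and II list had 36 tested genes. Of these, 18 were called higher in D1240A and none lower (50% called beside 6.09% of all tested genes). The list median was 0.19, beside 0.00 over all tested genes. Class II molecules display peptides from the endosome to helper T cells, and their genes share a master switch, CIITA. CIITA (chr16:10866222-10943021) measured 62.6, 68.4 and 64.3 FPKM in D1240A and 39.5, 38.3 and 43.3 in F1295A, a difference of 0.68 (95% interval 0.58 to 0.79, adjusted p = 3.59e-05). All D1240A libraries were higher than all F1295A libraries, and TKO (mean 71.0 FPKM) and WT (32.3) lay outside them on either side. CIITA overlaps DEXI (chr16:10928891-10942460), which was lower in D1240A, and the strand setting of the counting is not given.

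Most class II HLA genes were called in the same direction. Of 13 tested, 10 were called higher, with a median of 0.37, and HLA-DOB was below 0 (-0.13, not called). By library, their median difference from the F1295A mean was 0.43, 0.28 and 0.36 in D1240A replicates 1 to 3 and -0.01, 0.02 and 0.01 in F1295A, so the library with the rRNA had the lowest value of its group. HLA-DMB, a chain of the peptide-loading chaperone HLA-DM, measured 57.0, 53.3 and 57.5 FPKM in D1240A and 39.1, 39.5 and 39.8 in F1295A (difference 0.50, adjusted p = 0.00024). CD74, the invariant chain that occupies the class II groove until peptide is loaded, measured 4086, 3949 and 4003 FPKM against 3201, 3188 and 3298 (difference 0.31, adjusted p = 0.00033). Neither gene's groups overlapped. HLA-DRA had means of 1759 and 1394 FPKM (0.34), and HLA-DOA, a modulator of HLA-DM, 20.1 and 13.1 (0.60).

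The class I side was less uniform. HLA-B (485 against 426 FPKM, 0.19), HLA-E (134 against 120, 0.16), HLA-F (17.4 against 13.4, 0.37) and the peptide transporter TAP1 (57.2 against 50.2, 0.19) were called higher. B2M, the shared light chain of class I molecules (4214 against 4304 FPKM, -0.03), and NLRC5, the class I counterpart of CIITA (10.9 against 10.8, 0.02), were not called. The HLA genes are close paralogs that can share reads, so values of single HLA genes are uncertain. Without D1240A replicate 2, 18 members were called higher (median 0.21), with HLA-DQA2 added and RFX5, a subunit of the RFX complex, no longer called (adjusted p = 0.113). Only 1 member was called without rescaling (list median 0.10, all tested genes -0.08), and 9 in a fit of the 6 compared libraries alone.

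**Figure D3:**
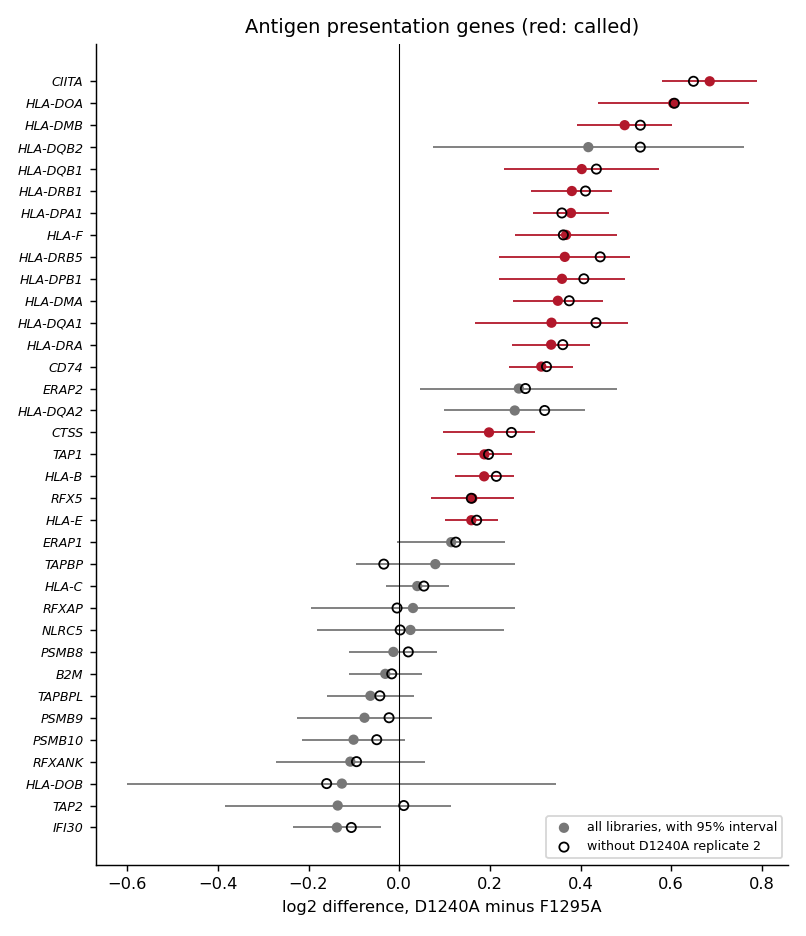
Difference between the mutants (horizontal axis, log2 of D1240A over F1295A) for 35 of the 36 tested antigen presentation genes, with 95% intervals from the fit of all libraries (filled points, red where called) and the value without D1240A replicate 2 (open circles). The 18 called genes all lie above 0, with CIITA at 0.68 the highest.

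The promoters of these genes are shown because CIITA acts through a shared element, an X box bound by the RFX complex followed by an inverted CCAAT box. The letters CCNNGNNAC, then any 3 bases and TG, were taken for the X box and ATTGG for the inverted CCAAT box, and both were searched on both strands in the 250 bases before each start of the RefSeq promoter table (GRCh38.p14). The X letters occurred in 3.20% of 35116 promoters and ATTGG in 32.0%. X letters followed by ATTGG after 10 to 30 bases occurred in 24 (0.0683%). Of the 18 called genes, 14 had a promoter in that table. Among these, 5 held the X letters, 13 held ATTGG, and 3 (HLA-B, HLA-DQB1 and HLA-DMA) held both in that arrangement. The 14 genes had 18 promoters, and a gene was counted when any of them matched. These counts per gene are thus not on the footing of the shares per promoter. Genes of the list that were not called were not counted, so the letters are not shown to mark the called genes. A match describes letters only and not a bound site. The stretch from 140 to 41 bases before the start is printed for 4 of the 5 called genes that held the X letters. It is given on the strand of the gene, with the X letters and ATTGG or its complement CCAAT in capitals. The positions are chr6:32666698-32666797 for HLA-DQB1, chr6:32953138-32953237 for HLA-DMA, chr6:32941069-32941168 for HLA-DMB and chr5:150412951-150413050 for CD74, all on the minus strand.
HLA-DQB1: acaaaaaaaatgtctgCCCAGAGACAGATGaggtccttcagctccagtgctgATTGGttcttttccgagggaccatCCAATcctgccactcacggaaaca
HLA-DMA: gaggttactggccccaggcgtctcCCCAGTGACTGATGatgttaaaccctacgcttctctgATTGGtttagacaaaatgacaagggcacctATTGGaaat
HLA-DMB: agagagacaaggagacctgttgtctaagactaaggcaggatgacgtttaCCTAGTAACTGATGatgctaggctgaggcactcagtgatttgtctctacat
CD74: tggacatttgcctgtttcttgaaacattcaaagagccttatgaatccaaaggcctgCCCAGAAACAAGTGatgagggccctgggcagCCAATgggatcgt
The X letters are present in all 4 windows because only genes that held them were printed. The windows of HLA-DMB and CD74 have no ATTGG downstream of these letters on the printed strand.

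Genes of immune signalling were called mostly higher in D1240A. Of 43 tested genes of NF-kB and the TNF superfamily, 8 were called higher and 1 lower (20.9% called beside 6.09% of all tested genes). Their median was 0.07, or -0.003 without rescaling, where all genes had -0.08. BIRC3, an inhibitor of apoptosis induced by NF-kB, measured 126.6, 136.7 and 130.7 FPKM in D1240A and 97.7, 99.9 and 96.2 in F1295A (difference 0.42, adjusted p = 6.59e-05). TNFAIP3, which switches NF-kB signalling off, had means of 98.6 and 76.6 FPKM (0.36, adjusted p = 7.8e-05). Neither gene's groups overlapped, and for both genes WT (90.4 and 73.7 FPKM) and TKO (99.4 and 79.1) were closer to F1295A. TNFRSF18, NFKBIZ, TRAF1 and the death receptor FAS were also called higher. The lower gene was TNFRSF17, the BCMA receptor of plasma cells, at 112 against 141 FPKM (-0.33). The called count of this list was 9 with all libraries, 7 without D1240A replicate 2, and 5 without F1295A replicate 2, at the low end of single omissions. It was 3 in the fit of the 6 compared libraries and 0 without rescaling.

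Among chemokines, cytokines and their receptors, 6 of 40 tested genes were called higher and 4 lower (25% called beside 6.09% of all tested genes). The interferon-induced chemokine CXCL10 measured 18.1, 17.0 and 17.6 FPKM in D1240A and 9.51, 10.8 and 8.94 in F1295A (difference 0.82, adjusted p = 0.000458), with WT at 8.16 and TKO at 3.65. CXCL10 in D1240A thus exceeded every other group. SOCS1, which blocks cytokine receptor signalling, measured 21.9, 20.3 and 20.3 FPKM in D1240A and 10.8, 11.3 and 12.3 in F1295A (difference 0.84, adjusted p = 0.000329), with TKO at 23.8 and WT at 7.11. CSF2RB, the shared beta chain of the GM-CSF receptor family (1.70 against 0.862 FPKM, 0.69), the homing receptor CXCR4 (32.4 against 26.1, 0.30) and IL6R (3.51 against 2.37, 0.48) were also higher. Hepatocyte growth factor HGF (70.2 against 85.5 FPKM, -0.28), CSF1 (2.32 against 3.35, -0.44), VEGFB and TGFB1 were lower. Of 49 tested interferon-stimulated genes, 4 were called higher and 1 lower (10.2% called beside 6.09% of all tested genes). IRF1 was at 28.8 against 23.1 FPKM (0.31), and without F1295A replicate 2 the list had 2 calls.

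Calls among B cell genes were CIITA, the transcription factor SPIB (31.0 against 21.8 FPKM, 0.51) and LRMP (0.25), all higher, of 11 tested. These were 27.3% of the list, beside 6.09% of all tested genes, and the list median was 0.04. CIITA is also counted among the antigen presentation genes, and LRMP was not called without D1240A replicate 2 (adjusted p = 0.083). Plasma cell genes were called mainly in the other direction, 11 lower and 2 higher of 31 tested (41.9% called), with a median of -0.10. TXNDC5, a disulfide isomerase abundant in antibody-secreting cells, measured 334.5, 327.6 and 323.3 FPKM in D1240A and 399.3, 400.8 and 396.9 in F1295A (difference -0.28, adjusted p = 0.00024). JCHAIN, which joins secreted immunoglobulin, had means of 3145 and 3912 FPKM (-0.31), and XBP1, the transcription factor of the secretory programme, 351.1 and 392.5 (-0.16). POU2AF1 (0.13) and ITM2C (0.19) were the 2 higher genes. WT lay above F1295A, and TKO below D1240A, for TXNDC5 (468 and 261 FPKM) and XBP1 (429 and 258 FPKM). Without D1240A replicate 2, 9 were called lower and 1 higher.

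Calls among genes of protein folding in the endoplasmic reticulum and of the amino acid response were mostly lower, and some of these genes are also in the plasma cell list. Of 45 tested endoplasmic reticulum chaperone and unfolded protein response genes, 9 were called lower and none higher (median -0.06). These were 20% of the list, beside 6.09% called among all tested genes. In the fit without D1240A replicate 2, 6 were called lower and 1 higher, and without rescaling or in the fit of the 6 compared libraries none was called. HSPA5, the main chaperone of that compartment, measured 223.0, 211.4 and 221.4 FPKM in D1240A and 256.3, 253.9 and 245.8 in F1295A (difference -0.20, adjusted p = 0.0028). Of 49 tested genes of ATF4 and the amino acid response, 13 were called lower and 1, ATF5, higher (28.6% called, median -0.09). DDIT3, the stress transcription factor CHOP, measured 27.3, 26.6 and 25.5 FPKM in D1240A and 35.2, 31.8 and 34.8 in F1295A (difference -0.35, adjusted p = 0.0017). SESN2 (10.6 against 14.03 FPKM, -0.38), the serine synthesis enzyme PSAT1 (2.90 against 4.17, -0.47), CEBPB (19.4 against 24.1, -0.30) and the amino acid transporter SLC7A5 (129 against 149, -0.21) were lower too. The groups did not overlap in HSPA5 or DDIT3. In SESN2, WT was at 21.2 and TKO at 4.31 FPKM. Without D1240A replicate 2, 9 genes of the ATF4 list were called lower, and without F1295A replicate 2 or 3 the list had 9 and 8 calls. It had 2 calls without rescaling and 2 in the fit of the 6 compared libraries.

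Adhesion molecules gave calls in both directions. A list of selectins, adhesion molecules with immunoglobulin-like domains and some other surface molecules, such as SDC4 and CD99, had 36 tested genes. Of these, 7 were called higher and 3 lower (27.8% called beside 6.09% of all tested genes, median 0.10). L1CAM, an adhesion molecule of neurons and some tumours, measured 8.70, 8.23 and 9.02 FPKM in D1240A and 4.46, 4.34 and 5.36 in F1295A (difference 0.81, 95% interval 0.58 to 1.04, adjusted p = 0.00176). ALCAM measured 3.90, 3.999 and 4.10 FPKM in D1240A and 2.38, 2.39 and 2.36 in F1295A (0.64, adjusted p = 0.00067). WT (2.35 FPKM) and TKO (2.32 FPKM) stood at the level of F1295A in ALCAM, whereas L1CAM in D1240A lay between WT (3.33) and TKO (16.7). ICAM1 (30.1 against 23.8 FPKM, 0.33), SDC4 (14.5 against 10.6, 0.44) and NRCAM (13.3 against 10.2, 0.36) were also higher, while CD99 (-0.30) and CNTN1 (-0.38) were among the lower genes. The 6 calls without D1240A replicate 2 were all higher, and without F1295A replicate 2 there were also 6 calls.

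Of 15 tested cadherins, 4 were called higher (26.7%), CDH17 (107 against 93.7 FPKM, 0.19), CDH24, CELSR1 and PCDH9. Only 1 was called without D1240A replicate 2, as also without F1295A replicate 2. The single call among 13 integrins (7.69%) was ITGB7, an integrin of plasma cell homing. It measured 614.2, 586.5 and 584.2 FPKM in D1240A and 741.2, 735.1 and 756.0 in F1295A (-0.32, adjusted p = 0.00019). Extracellular matrix genes gave 2 calls of 23 (8.70%), MATN2 lower (37.7 against 47.5 FPKM, -0.33) and COL6A1 higher (6.70 against 4.91, 0.42). Focal adhesion genes gave 5 calls of 58 (8.62%), 3 higher and 2 lower. The shares of these last 3 lists were near the 6.09% called among all tested genes. Focal adhesion genes gave 3 calls without D1240A replicate 2 or 3, 1 without F1295A replicate 2, 2 without F1295A replicate 3 and 9 without D1240A replicate 1, and none in the fit of the 6 compared libraries.

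Calls among genes of ribosome production were all lower, and their counts depended on single libraries. All 84 tested cytosolic ribosomal protein genes had a difference below 0 (median -0.17), and 29 were called lower (34.5%). The median difference from the F1295A mean was -0.10, -0.25 and -0.14 in D1240A replicates 1 to 3 and -0.04, 0.03 and 0.00 in F1295A, so D1240A replicate 2 was the lowest library. Without it 8 were called, without D1240A replicate 3 12, without F1295A replicate 2 5 and without F1295A replicate 3 6, while without D1240A replicate 1 48 were called. The fit of the 6 compared libraries called none of them. RPS26 was called with and without D1240A replicate 2, at 1221, 1159 and 1238 FPKM in D1240A and 1399, 1429 and 1408 in F1295A (-0.23). The 76 tested nuclear genes of oxidative phosphorylation had a median of -0.13 with 17 called lower (22.4%). Single omissions took that count from 0 without F1295A replicate 3, and 1 without D1240A replicate 2 or F1295A replicate 2, to 35 without D1240A replicate 1, with 5 without D1240A replicate 3. MYC, a transcription factor that drives ribosome production, measured 168.2, 178.6 and 164.8 FPKM in D1240A and 203.3, 202.3 and 208.1 in F1295A (-0.26, adjusted p = 0.0022), with WT at 238 and TKO at 154. It was called lower without D1240A replicate 2 as well (-0.30). Of the 47 MYC-related and ribosome biogenesis genes, 6 including MYC were called lower and none higher (12.8% beside 6.09% of all tested genes). The list had 3 calls without D1240A replicate 2, 1 without F1295A replicate 2 and 2 without F1295A replicate 3. It had 1 call in the fit of the 6 compared libraries. Of the 47, 37 had a difference below 0 and 10 above.

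Of 60 mitosis genes, 8 were called higher and 1, PRC1, lower (15% called beside 6.09% of all tested genes). Their median was 0.05, or -0.04 without rescaling, where all genes had -0.08. MKI67 (84.4 against 68.5 FPKM, 0.30), BUB1 (97.9 against 87.0, 0.17) and TOP2A (109 against 98.0, 0.16) were among the higher ones. Only 2 mitosis genes were called without D1240A replicate 2, 3 without D1240A replicate 3, 4 without F1295A replicate 2 or 3, and none in the fit of the 6 compared libraries or without rescaling. Of 32 tested p53 targets, 3 were called higher, with TP53INP1 (9.97 against 6.01 FPKM, 0.68), MDM2 (37.0 against 28.0, 0.38) and FAS, and 2 lower. These were 15.6% of the targets, beside 6.09% of all tested genes. The list had 4 calls without D1240A replicate 2, where MDM2 was not called (0.29, adjusted p = 0.097), 3 without D1240A replicate 3, F1295A replicate 2 or F1295A replicate 3, and 2 in the fit of the 6 compared libraries. The MAPK phosphatase DUSP10 measured 10.3, 11.9 and 11.2 FPKM in D1240A and 6.82, 6.93 and 6.61 in F1295A (difference 0.67, adjusted p = 0.0015), with WT at 6.38 and TKO at 6.94. DUSP10 was thus higher in D1240A than in any of the other 3 groups.

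Of 30 tested enzymes and readers of H3K36 methylation, 5 were called (16.7% beside 6.09% of all tested genes). Besides NSD2 these were 4 higher genes, NSD3 (0.20), ASH1L (0.24), KDM2A (0.16) and PSIP1 (0.15), and none lower. NSD2 was the single call without D1240A replicate 2, without F1295A replicate 2 or without F1295A replicate 3, and 2 genes were called without D1240A replicate 3. NSD1 (15.6 against 14.6 FPKM, 0.08) and SETD2, the main trimethylase of this residue (12.01 against 10.49, 0.19), were not called. Of 15 genes of the Polycomb complex PRC2 and H3K27 methylation, only RBBP4 was called (6.67%, near the 6.09% of all tested genes). It was higher (0.14), and it was not called without D1240A replicate 2 (0.09). In the list of genes linked to t(4;14) or NSD2 in myeloma, 3 of 28 were called higher and 4 lower (25% called). Carbonic anhydrase CA2 (3.59 against 5.47 FPKM, -0.54), RRAS2 (1.65 against 2.73, -0.58), the phosphatase PTP4A3 (21.4 against 28.1, -0.39) and FGFR3 were lower. The list had 2 higher and 3 lower calls without D1240A replicate 2, and RRAS2 was not among them (adjusted p = 0.056). FGFR3, the receptor gene that t(4;14) brings under an immunoglobulin enhancer, had 392 against 440 FPKM (-0.17), and it and FGFRL1 (-0.36) were the 2 calls among 31 tested neighbours of NSD2 on chromosome 4 (6.45% called, near the 6.09% of all tested genes). FGFRL1 was not called without D1240A replicate 2 (-0.32, adjusted p = 0.053). No neighbour was called without F1295A replicate 3 or in the fit of the 6 compared libraries.

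Of the 36 pathway lists, 9 had no member called by limma. They held 40 axon guidance, 52 DNA replication, 13 mitochondrially encoded, 5 APOBEC3, 4 globin, 14 S100 and annexin, 32 proteasome, 15 DNA methylation and 10 HOX genes. The share of their members with an unadjusted p under 0.05 ranged from 0% of the HOX genes to 35.7% of the S100 and annexin genes, beside 22.6% of all tested genes, and was 19.2% of the DNA replication genes. Hypoxia and glycolysis genes had 4 calls of 41 (9.76% beside 6.09% of all tested genes), all higher, and 2 calls without F1295A replicate 2. Among them was the transcription factor BHLHE40 at 14.7 against 10.03 FPKM (0.53). The transferrin receptor TFRC, which brings iron into dividing cells, was higher at 79.1 against 58.2 FPKM (0.44, adjusted p = 0.0001) and held the sum of the erythroid marker list, the other 11 members of which were under 0.5 FPKM.

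The largest differences among well-expressed genes were taken by rule, 14 in each direction among called, named genes with non-overlapping groups. The rule also asked for a call in the same direction without D1240A replicate 2, so larger differences that lost that call were left out. Higher in D1240A, beside genes already described, were DENND3, a Rab exchange factor (5.10 against 2.52 FPKM, 0.88), OLAH, a thioesterase of fatty acid synthesis (3.96 against 2.08, 0.80), and steroid sulfatase STS (4.63 against 2.61, 0.72). They also included the actin-binding SYNPO (5.81 against 3.36 FPKM, 0.71), TSPOAP1 (3.94 against 2.17, 0.73), the pseudogene CMAHP (0.75) and the non-coding AC005537.1 (0.90) and AC007068.1 (0.75). DENND3 was less even than the others, with 3.96, 6.62 and 4.70 FPKM in D1240A, and its difference was 0.69 without replicate 2 (adjusted p = 0.039).

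Lower in D1240A were CPVL, a serine carboxypeptidase, with 4.01, 3.14 and 4.36 FPKM in D1240A and 6.75, 7.86 and 6.81 in F1295A (-0.83, adjusted p = 0.00139), and the tyrosine phosphatase PTPN13 with 2.87, 3.13 and 2.72 against 4.998, 5.46 and 5.64 (-0.78, adjusted p = 0.00184). PTPN13 was almost silent in TKO (0.00319 FPKM) and highest in WT (7.02 FPKM). TBC1D4, a Rab-regulating protein of glucose transport, measured 3.02, 3.00 and 2.88 FPKM in D1240A and 4.81, 4.81 and 4.85 in F1295A (-0.62, adjusted p = 0.00153), with TKO at 0.234 and WT at 6.55. These genes thus stood in the order TKO, D1240A, F1295A, WT. The other lower genes were MTURN (-0.79), TMSB15A (-0.74), CAV2 (-0.64), DEXI (-0.61), FKBP7 (-0.60), APBB1 (-0.59), PLD4 (-0.57), CA2 (-0.54), BEX3 (-0.54), AIG1 (-0.53) and DPM3 (-0.50).

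Of these 28 genes, D1240A was nearer to TKO than F1295A was in 21, counted on log2 group means. In 16, D1240A lay between TKO and WT. In 8 it stood above both, among them CXCL10, DENND3, OLAH and SYNPO, and in 4 below both (CAV2, DEXI, PLD4 and DPM3). In all 28, D1240A was farther from WT than F1295A was. The 28 were taken for large differences between the mutants, and these counts were not made over all tested genes, so they only describe the 28. The comparison of each mutant with WT shares the WT libraries, so those values are only set side by side. CPVL differed from WT by -1.56 in D1240A and -0.74 in F1295A, CIITA by 1.00 and 0.31, and ALCAM by 0.66 and 0.01.

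The same order was then read over all genes that separate WT from TKO, a contrast that uses none of the 6 mutant libraries. In 641 genes with WT at least 2-fold above TKO, the median difference between D1240A and F1295A was -0.16, D1240A was higher in 26.1%, and 13 were called higher and 68 lower. In 360 genes with WT at least 2-fold below TKO, the median was 0.13, D1240A was higher in 68.1%, and 55 were called higher and 1 lower. The other 13390 genes had a median of 0.00, with 364 called higher and 375 lower (5.52% called). Without D1240A replicate 2 the medians were -0.14 and 0.11. The calls were then 8 higher and 33 lower in the 641, and 44 higher and 1 lower in the 360.

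**Figure D4:**
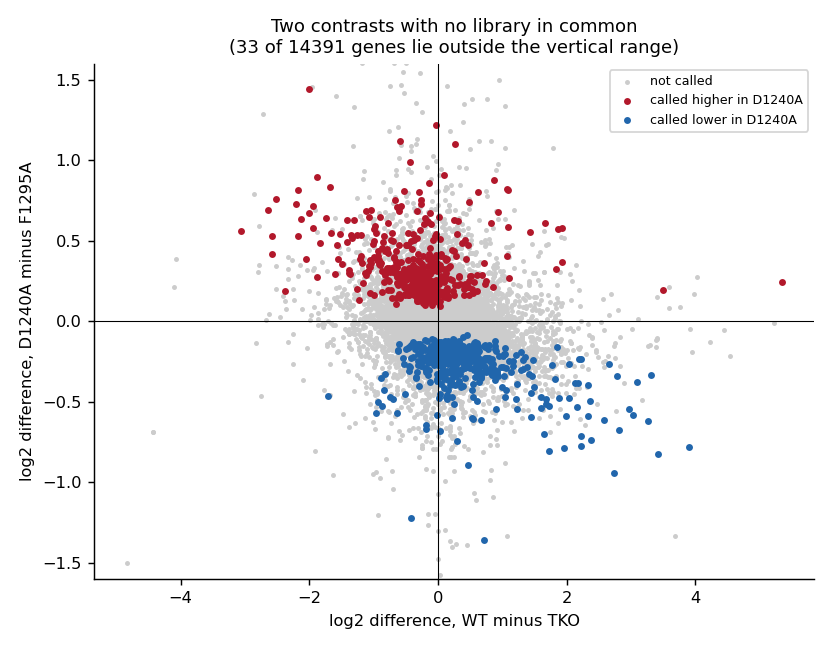
Difference between the mutants (vertical axis, log2 of D1240A over F1295A) against the difference between WT and TKO (horizontal axis, log2), 1 point per tested gene, with called genes in colour. Called higher genes (red) lie mostly left of 0 and called lower genes (blue) mostly right of 0, and 33 genes lie outside the vertical range.

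Seen from the calls, 331 of the 432 genes called higher in D1240A (76.6%) had WT below TKO, and 348 of the 444 called lower (78.4%) had WT above TKO. Over all tested genes 50.8% had WT below TKO. Among calls that held without D1240A replicate 2, the shares were 160 of 191 (83.8%) and 133 of 156 (85.3%). Across the 1001 genes at least 2-fold apart between WT and TKO, the 2 differences had a Pearson correlation of -0.32 and a Spearman correlation of -0.42, and across all 14391 genes -0.20 and -0.23. These are correlations across genes, which are not independent replicates, and all libraries share the scaling.

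Each library was also placed between the TKO mean (0) and the WT mean (1) for every such gene. The genes were chosen on these same means, which can widen the gap between them. A place under 1 is therefore not by itself a measured shortfall from WT. In the 641 genes above TKO in WT, the median place was 0.72, 0.76 and 0.75 in D1240A replicates 1 to 3 and 0.85, 0.85 and 0.85 in F1295A. In the 360 genes below TKO in WT, it was 0.82, 0.83 and 0.82 in D1240A and 0.92, 0.92 and 0.91 in F1295A. All 3 D1240A libraries stood nearer to TKO than all 3 F1295A libraries in both sets. Mean NSD2 RNA was 251 FPKM in D1240A, 190 FPKM in WT and 164 FPKM in F1295A, and its part in these places was not tested.

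**Figure D5:**
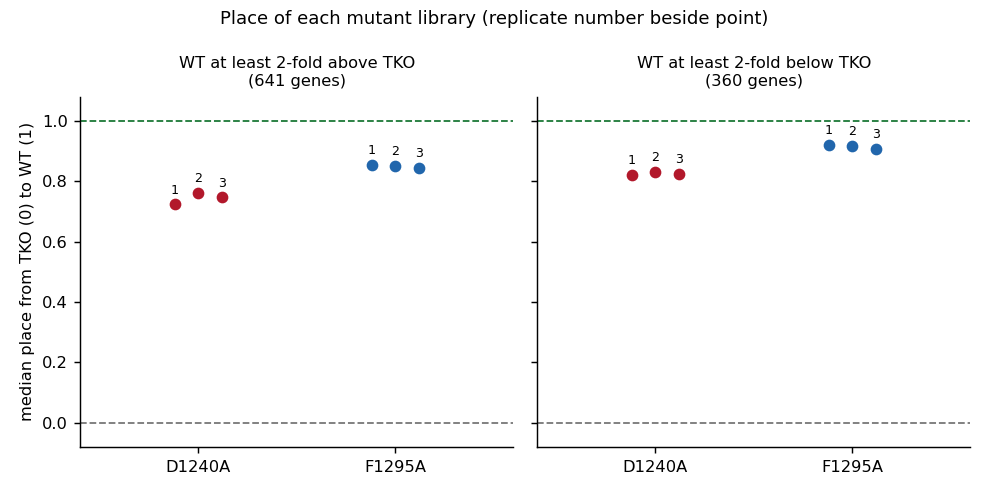
Median place of each mutant library between TKO (0, grey line) and WT (1, green line), for 641 genes above (left) and 360 genes below TKO in WT (right), with the replicate number beside each point. D1240A libraries lie at 0.72 to 0.76 and 0.82 to 0.83, below F1295A at 0.85 and 0.91 to 0.92.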

How the data were processed

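The labels give poly(A) RNA sequencing for all 12 libraries, 3 per group, but D1240A replicate 2 held much RNA that has no poly(A) tail. No source used here says whether it was prepared in another way. The submitters' processing notes name Trimmomatic 0.36, FastQC 0.11.4, STAR 2.7.9a, RSEM 1.3.1, DESeq2 and the build GRCh38. The deposited values are FPKM per gene and library. The annotation release and the strand setting: not given in the sources used here. Of 60504 features, 56996 (94.2%) had an identifier in GENCODE 29, used for names, classes and positions, and the 3508 with placeholder names were not named.

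From the deposited FPKM, 7089 structural RNA features were dropped, and libraries were rescaled by a mean of log2 ratios, taken where genes averaged 1 FPKM or more, with 30% trimmed from each side. The 14391 genes that reached 0.5 FPKM in 3 or more libraries entered 1 fit over all 12 libraries in limma 3.58.1 under R 4.3.3. Values were log2(FPKM + 0.5), with group as the factor and a variance trend. All 4 groups share the estimate of spread. Adjusted p-values are Benjamini-Hochberg over all tested genes, and the threshold was 0.05. The p-values measure the spread between these biological replicates. A shift of all genes together is removed by rescaling and was not measurable.

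Depth was estimated from the step of 1 fragment in low FPKM values. Fragments are not independent molecules, and no counting interval is given. The 28 genes of the rule were the 14 largest log2 differences in each direction among called genes that met 4 conditions. These were non-overlapping groups, a gene name, a mean of at least 2 FPKM over all libraries, and a call in the same direction without D1240A replicate 2. The 4 members with the smallest adjusted p of each list, and every H3K36 gene, were added, and other list members are named where they were called or show a level. 1 gene of the antigen presentation list is counted but not reported here. Members and the 46 lists were chosen with earlier results of these data known. On simulated data with known changes, 90% of 1.5-fold and 98% of 3-fold changes were called in this comparison, with 10 false calls among 13932 genes. The simulation drew independent noise with the same spread in every library of a gene, and put no changes in low genes. It held no library like D1240A replicate 2, so these shares need not hold for the real libraries.

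Same-numbered D1240A and F1295A libraries had residual correlations of 0.02, 0.06 and 0.06, and the numbers were not taken to pair samples. Alternatives were other scalings, filters, pseudocounts, kept structural RNAs, library weights, removed window medians, a block for replicate number, fewer libraries and each library left out. Python 3.11.15 with pandas 2.3.3, numpy 2.4.6, scipy 1.17.1 and matplotlib 3.10.9 was used.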

Additional observations from a re-analysis of the deposited data

Results flagged for a closer look

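A signal outside the tested genes was seen in 1 of the 6 libraries. Ribosomal RNA features made up 51.4% of all deposited FPKM in D1240A replicate 2, where the other 11 libraries had 0.133% to 0.995%. Its small nuclear RNA features added up to 90165 FPKM, where the others had 66.8 to 307.2. These features were left out of the comparisons in the report. With them kept, limma called 419 genes higher and 422 lower.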

How the results depend on the processing

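Counts of calls depended on the fit. Beside 432 higher and 444 lower genes, there were 31 and 32 on the values as deposited without rescaling, 247 and 185 with no filter, and 70 and 31 with only the 6 compared libraries in the fit. At least 2-fold left 5 and 2. With a replicate block, 285 genes were called higher and 240 lower. Leaving out each library of the 12 in turn gave 173 to 535 higher and 137 to 689 lower genes, and the cause was not tested. In settings added after seeing the data, the compared libraries without D1240A replicate 2 gave 58 and 19, and window medians removed without it 164 and 121. NSD2 was called in all 25 alternatives, at 0.59 to 0.64 when a library was left out. Of the 28 genes of the rule, 15 were called in all 25 alternatives. The call without D1240A replicate 2 was a condition of that rule. No direction reversed, but the rule took only genes with non-overlapping groups, which leaving out a library can hardly reverse. 13 lost the call in the compared libraries without D1240A replicate 2, where fewer samples are fitted, and 10 with the 6 compared libraries. Half-widths of the 95% interval had a median of 0.17. These intervals are not adjusted for the number of genes, so a call asked for a larger difference than the half-width. Differences near or below 0.17 in single genes were mostly not detectable, and a gene that was not called is not shown to be equal.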

Other observations

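Genes named ZNF, which code for zinc finger proteins and were picked out after their values were seen, leaned to higher levels in D1240A. Of 349 tested, 253 (72.5%) had a difference above 0, against 48.5% of the other 11208 protein-coding genes, and the median was 0.08 (0.06 without D1240A replicate 2). 15 were called higher and none lower by limma, 4.30% of them against 7.16% called among the other protein-coding genes. By library the median difference from the F1295A mean was 0.06, 0.13 and 0.07 in D1240A replicates 1 to 3 and -0.00, -0.01 and -0.01 in F1295A. On chromosome 19, where many of these genes cluster, 149 had a median of 0.11, and the highest of 284 windows of neighbouring genes lay there, with a median of 0.16 over 50 genes (0.13 without D1240A replicate 2). Window medians had an SD of 0.034 over the genome.

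Replication-dependent histone genes had a median of 1.09 over 44 tested, with no call by limma and 6 at an unadjusted p under 0.05, and 0.07 without D1240A replicate 2.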
